A study of Mus musculus with 2 samples.

Results

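The C/EBP transcription factors described here are 4 genes of the 32285 counted, Cebpa, Cebpb, Cebpd and Cebpg, listed by symbol. They were chosen by measured values of these same 2 libraries, the high ratio of Cebpb over all nuclei and the ratios of the members in the cell classes, so those ratios are given as a description. Nuclei of injured mouse spinal cord were profiled in 2 libraries, named PBS and AEVs, and each library pooled 3 animals. All animals were wild-type C57BL/6 mice of 6 to 8 weeks with a contusion at T10, made by letting a rod of 5 g and 1 mm fall from 6 cm. Both groups had antibiotics and 1 injection into the tail vein on each of 5 days, of 100 µL PBS or of the same volume with 100 µg of vesicle protein (AEVs, athlete-derived extracellular vesicles), and were killed on day 7. There was no uninjured library, so the injury is common to every value below. With 1 library per group no test across samples was possible, and all intervals are 95% intervals for counting error only. They leave out differences between mice, between pools and between preparations.

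CCAAT/enhancer-binding proteins (C/EBPs) are leucine zipper factors that bind DNA as dimers with each other or with related factors such as ATF4. C/EBPα and C/EBPβ direct myeloid and fat cell differentiation, C/EBPβ and C/EBPδ are induced by interleukin-6, interleukin-1 and glucocorticoids and drive acute-phase genes, and C/EBPγ lacks a strong activation domain and acts through its partners. In glia, C/EBPβ and C/EBPδ are known from inflammatory activation of microglia and astrocytes. C/EBPβ is also made as long and short proteins from a single messenger by alternative translation starts, which counts of RNA cannot tell apart.

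On GRCm38 (mm10), with the GENCODE M21 annotation, Cebpb (ENSMUSG00000056501) lies on the plus strand of chromosome 2 from 167688915 to 167690418 and has 1 exon. Cebpa (ENSMUSG00000034957, chromosome 7, 35119293 to 35121928, plus strand) and Cebpg (ENSMUSG00000056216, chromosome 7, 35046422 to 35056573, minus strand) are close neighbours, and Cebpd (ENSMUSG00000071637) lies on chromosome 16 from 15887286 to 15891031 on the plus strand. The annotated transcripts of these 3 genes have 1 or 2 exons. Protein-coding genes on the opposite strand overlap 2 members, Tmem189 at Cebpb and Spidr at Cebpd, and whether reads were counted by strand is not given in the sources used here. Over all nuclei Tmem189 had a log2 ratio of AEVs to PBS of 0.17 (0.11 to 0.23) and Spidr of -0.19 (-0.28 to -0.10).

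The RefSeq promoters of 3 members were matched, and the 250 bases before each start on GRCm38.p6 are printed because Cebpb alone of these 3 differed widely between the libraries. Capitals mark the core of the cAMP response element (TGACG) and the CCAAT box (CCAAT), each on either strand, and the TATA box (TATAAA) on the gene's strand. Cebpb is at chr2:167688665-167688914 (plus strand), Cebpa at chr7:35119043-35119292 (plus strand) and Cebpg at chr7:35056567-35056816 (minus strand).
Cebpb: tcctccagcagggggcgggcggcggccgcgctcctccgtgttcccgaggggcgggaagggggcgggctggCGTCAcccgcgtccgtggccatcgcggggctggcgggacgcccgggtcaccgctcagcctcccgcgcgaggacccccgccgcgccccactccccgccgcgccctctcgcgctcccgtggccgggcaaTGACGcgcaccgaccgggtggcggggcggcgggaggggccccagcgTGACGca
Cebpa: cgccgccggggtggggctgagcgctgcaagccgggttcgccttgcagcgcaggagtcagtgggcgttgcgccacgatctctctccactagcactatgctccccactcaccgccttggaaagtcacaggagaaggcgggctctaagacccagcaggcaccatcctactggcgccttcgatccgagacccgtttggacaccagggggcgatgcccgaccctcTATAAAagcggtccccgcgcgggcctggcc
Cebpg: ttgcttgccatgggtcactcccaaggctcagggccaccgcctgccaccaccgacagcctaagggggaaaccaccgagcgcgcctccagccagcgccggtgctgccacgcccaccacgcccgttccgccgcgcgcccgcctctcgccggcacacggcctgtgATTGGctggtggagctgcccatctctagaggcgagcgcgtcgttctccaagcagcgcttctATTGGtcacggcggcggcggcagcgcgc

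The Cebpb window held 3 matches to TGACG, beginning 180, 53 and 7 bases before the start, and 17.8% of the 32851 promoter windows of this length held at least 1. It was 81.6% G or C, against a median of 52.4% over all promoter windows, and held 5 matches to the GC box GGGCGG, which 32.7% of windows had. The Cebpa window held TATAAA 30 bases before the start (7.59% of windows) and the Cebpg window held 2 CCAAT boxes (33.8% of windows). None of the 3 windows matched the full cAMP response element TGACGTCA, the C/EBP palindrome TTGCGCAA, the STAT site TTCNNNGAA, the AP-1 site TGANTCA, the glucocorticoid response element or its core AGAACA, on either strand. These letters were found in 1.55% (TGACGTCA), 0.164% (TTGCGCAA), 7.02% (TTCNNNGAA), 6.75% (TGANTCA) and 16.1% (AGAACA) of windows. Matches of letters do not show binding.

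After filtering, 13847 PBS and 15602 AEVs nuclei remained, with 71221228 and 68548886 unique molecular identifiers (UMIs) and medians of 2591 and 2407.5 UMIs per nucleus. The libraries shared 147 cell barcodes among these nuclei. Clusters were named from marker genes, and the 11 classes that reached 100 nuclei in both libraries are described, each called "-like" because the name rests on RNA alone. The class led by Gpnmb, a gene of lipid-laden phagocytes, was set apart from microglia-like and macrophage-like nuclei. Levels are UMIs per 1000000 UMIs of the class and library (CPM). In such sums, fewer cells of a type and less RNA per cell cannot be told apart. The mix of cells differed, with 7.08% of PBS and 3.52% of AEVs nuclei fibroblast-like, and summed markers of macrophages, neutrophils and fibroblasts were lower in the AEVs library over all nuclei, at log2 ratios of -0.78, -0.68 and -0.92. Summed markers of red blood cells were higher, at 1.14.

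Cebpb was the member with the widest difference between the libraries. It was higher in the AEVs library in phagocyte, stromal and vascular nuclei and in most glial classes. Among glia, Schwann-like and oligodendrocyte precursor-like nuclei had too few Cebpb UMIs to show a difference. In neuron-like nuclei Cebpb was higher too, at a level that could not be told from free RNA. The part of free RNA in the other classes was not tested. Over all nuclei it had 448 UMIs in PBS (6.29 CPM, 5.72 to 6.90) and 1813 UMIs in AEVs (26.4 CPM, 25.2 to 27.7), a log2 ratio of 2.07 (1.92 to 2.22), or 4.20-fold. Among 21024 measured genes, those with 20 or more UMIs summed over the libraries, 94 had a higher ratio, and 4.49% were at least 2-fold higher in AEVs. The median log2 ratio of these genes was 0.10. When each cluster was given equal weight in the 2 libraries, the log2 ratio of Cebpb was 2.13.

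**Figure D1:**
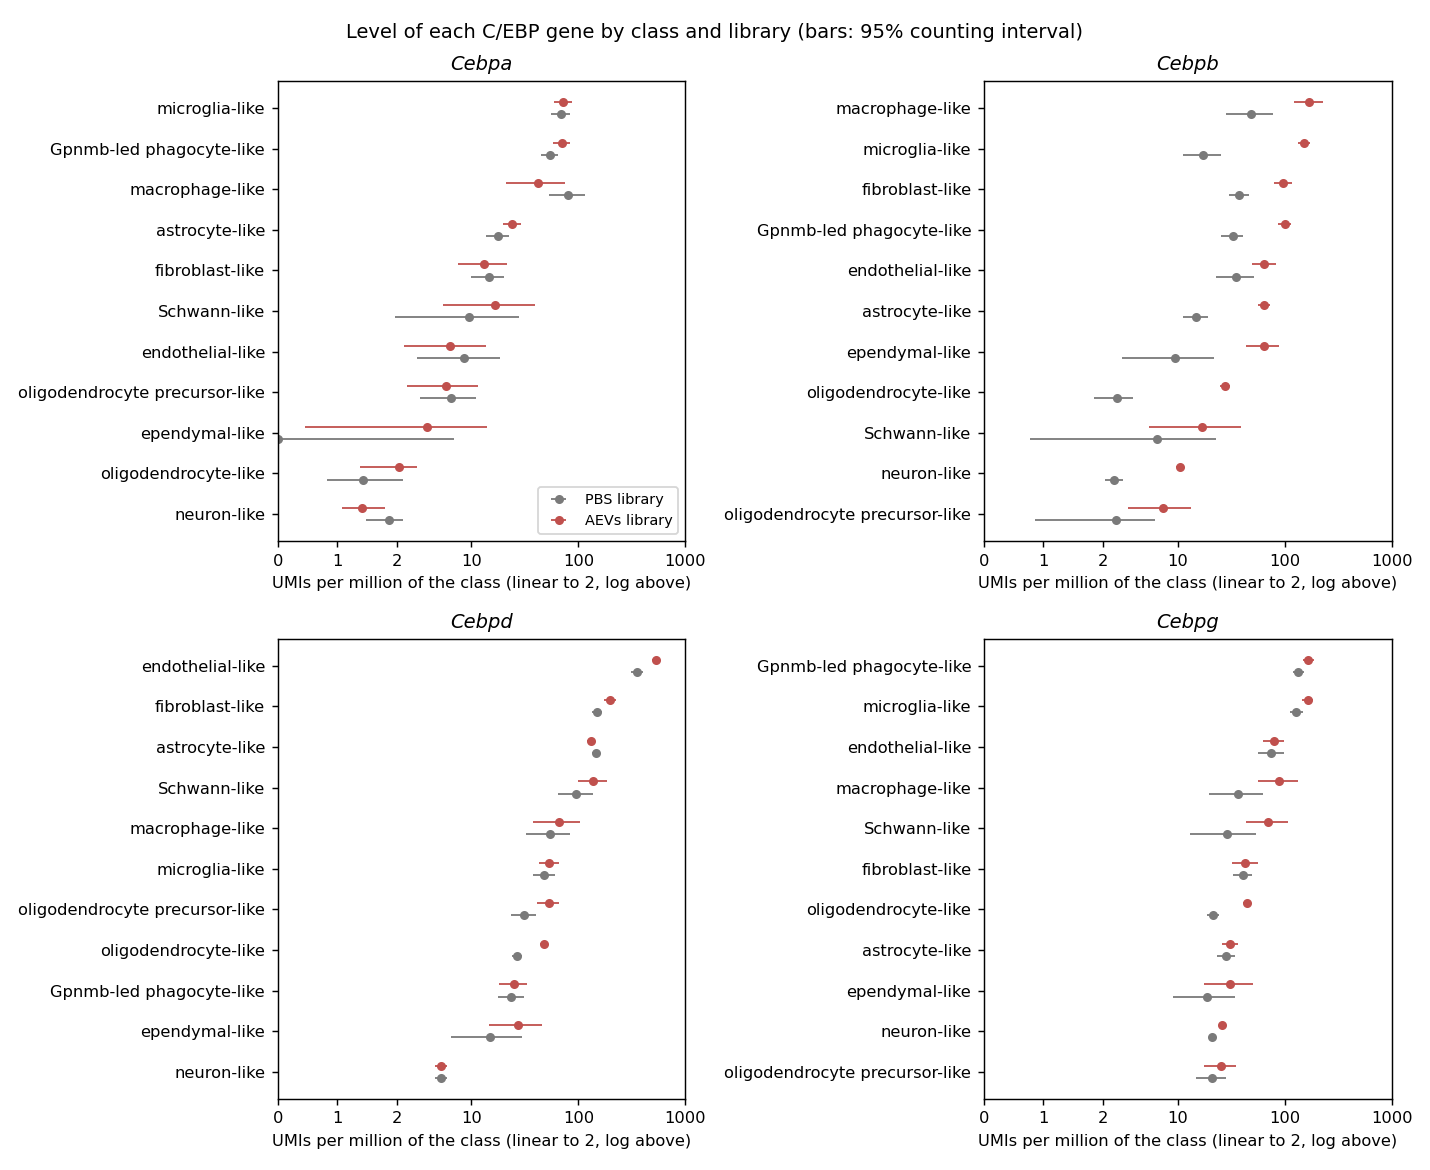
Level of the 4 genes by class, in UMIs per 1000000 UMIs of the class (axis linear to 2 and logarithmic above), for the PBS library (grey) and the AEVs library (red), with 95% counting intervals as bars and classes ordered by mean level. The red Cebpb points lie to the right of the grey ones in each class, while over all nuclei those of Cebpa are at 6.80 and 7.12; Cebpd is highest in endothelial-like nuclei, at 354 and 529.5.

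In the order of its levels within the PBS library, Cebpb was highest in macrophage-like (48.2 CPM), fibroblast-like (37.4), endothelial-like (35.3) and Gpnmb-led phagocyte-like nuclei (32.6). Neighbours within this group did not differ beyond counting error. Microglia-like (17.3) and astrocyte-like nuclei (14.8) followed, below the Gpnmb-led class by more than counting error. Ependymal-like and Schwann-like nuclei had 9.36 and 6.39 CPM from 5 and 2 UMIs, and oligodendrocyte-like, oligodendrocyte precursor-like and neuron-like nuclei lay between 2.55 and 2.70. In the AEVs library microglia-like nuclei (153 CPM) stood beside macrophage-like nuclei (169) and above the Gpnmb-led class (99.9) by more than counting error. Fibroblast-like nuclei (96.9) followed, then endothelial-like, astrocyte-like and ependymal-like nuclei at 64.5, 64.3 and 63.6, and oligodendrocyte-like nuclei at 27.5.

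In microglia-like nuclei, the resident macrophages of the cord, Cebpb stood near the top of all genes by ratio. It had 26 UMIs in 917 PBS microglia-like nuclei and 241 UMIs in 1055 AEVs nuclei, a log2 ratio of 3.15 (2.56 to 3.79), and 2 of 10631 measured genes had a higher ratio (5.08% were at least 2-fold higher). A Cebpb UMI was found in 2.84% of PBS nuclei (1.86 to 4.13) and in 20.5% of AEVs nuclei (18.1 to 23.0). Each PBS nucleus with Cebpb had 1 UMI, while in AEVs 193 nuclei had 1, 21 had 2 and 2 had 3. The UMIs were thus spread over many nuclei. Summed microglia markers were alike in the 2 libraries in this class (12494 and 12770 CPM). Macrophage markers (568 and 395 CPM) and neutrophil markers (776 and 467 CPM) were lower in AEVs, with 0 of 3 and 0 of 4 measured markers higher there and the neutrophil genes Cxcr2, Mmp9 and Ltf at 0 UMIs in AEVs.

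The widest ratio among the named classes was in oligodendrocyte-like nuclei, the myelinating cells, from a very low PBS level. Cebpb had 32 UMIs in 4379 PBS nuclei (2.70 CPM, 1.85 to 3.81) and 336 UMIs in 5393 AEVs nuclei (27.5 CPM, 24.6 to 30.6). The log2 ratio was 3.35 (2.82 to 3.92), and 24 of 14584 measured genes had a higher one, with 6.61% at least 2-fold higher. Within this class the log2 ratio was 3.68 (2.92 to 4.54) in the cluster led by Ptgds, Mal and Mog, 2.87 (2.03 to 3.83) in the cluster led by Apod, Prr5l and Anln, and 3.09 (1.62 to 5.04) in the cluster led by Gm32122. All 3 larger oligodendrocyte-like clusters therefore had it, while the smallest had 0 and 3 UMIs. In these nuclei summed microglia markers were 115 and 117 CPM, macrophage markers 43.3 and 23.6 CPM and neutrophil markers 51.0 and 36.7 CPM. Summed markers of red blood cells were 31.1 and 69.8 CPM. The part of these markers in the result was not tested.

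Astrocyte-like nuclei had 14.8 CPM in PBS (55 UMIs) and 64.3 CPM in AEVs (276 UMIs), a log2 ratio of 2.12 (1.69 to 2.56), with 3.96% of genes at least 2-fold higher. The ratio was alike in both astrocyte-like clusters, 2.07 (1.50 to 2.70) in the one led by A2m, Vim and Aqp4 and 2.04 (1.41 to 2.71) in the one led by Agt. In AEVs 20 astrocyte-like nuclei had at least 3 Cebpb UMIs, with 9 in the highest, and in PBS 1 nucleus did. In this class, too, markers of red blood cells were higher in AEVs, 69.9 and 155 CPM, while macrophage markers were 149 and 88.8 CPM. Their part in the result was not tested. Ependymal-like nuclei, which line the central canal, had 5 UMIs in PBS and 33 in AEVs, a log2 ratio of 2.77 (1.40 to 4.48), with 4.95% of genes at least 2-fold higher. Thinned to 1000 UMIs per nucleus, 3 and 7 UMIs were left and the ratio was 1.05.

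Macrophage-like, Gpnmb-led and fibroblast-like nuclei were at least 2-fold higher as well. In macrophage-like nuclei 17 and 44 UMIs gave a log2 ratio of 1.81 (0.97 to 2.71; 5.79% of genes at least 2-fold higher). In Gpnmb-led phagocyte-like nuclei 72 and 180 UMIs gave 1.61 (1.21 to 2.03; 4.19%), and in fibroblast-like nuclei 88 and 118 UMIs gave 1.37 (0.96 to 1.79; 4.49%). The macrophage-like cluster was led by Igkc, Cd74 and F13a1. In it summed B or plasma cell markers were 888 CPM in PBS and 345 in AEVs, dendritic cell markers 269 and 15.3, and markers of red blood cells 448 and 12461, and the part of these in its value was not tested. Endothelial-like nuclei, whose leading genes include Rgs5 of mural cells, had 25 Cebpb UMIs in PBS and 61 in AEVs. Their log2 ratio was 0.87 (0.18 to 1.60; 4.33% of genes at least 2-fold higher), under 2-fold, unlike the other 8 classes with enough UMIs.

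Neuron-like nuclei had 2.55 CPM in PBS (113 UMIs) and 10.6 CPM in AEVs (457 UMIs), a log2 ratio of 2.05 (1.75 to 2.36; 4.07% of genes at least 2-fold higher). The largest neuron-like cluster, led by Galntl6, had 1.62 (1.20 to 2.06). In Schwann-like nuclei 2 and 5 UMIs gave 1.39 (-1.22 to 4.78), and in oligodendrocyte precursor-like nuclei 5 and 10 UMIs gave 1.44 (-0.24 to 3.34). In both Cebpb had too few UMIs to show a difference (5.55% and 4.11% of genes at least 2-fold higher).

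In all, Cebpb reached 20 UMIs in 9 of 11 classes, was at least 2-fold higher in AEVs in 8 of them and lower in 0, and had its interval wholly above 2-fold in 6. The share of genes at least 2-fold lower was 1.28% in astrocyte-like, 1.87% in microglia-like, 2.32% in oligodendrocyte-like and in neuron-like and 2.47% in endothelial-like nuclei. It was 3.65% in Gpnmb-led phagocyte-like, 3.8% in ependymal-like, 3.86% in oligodendrocyte precursor-like, 4.11% in fibroblast-like, 4.12% in Schwann-like and 6.01% in macrophage-like nuclei. Across single clusters it was higher in AEVs in 26 of 26 clusters with a UMI in both libraries, with a median log2 ratio of 2.26 and a range of 0.87 to 4.17. The share of all Cebpb UMIs from microglia-like nuclei was 5.80% in PBS and 13.3% in AEVs, and that from oligodendrocyte-like nuclei 7.14% and 18.5%. Fibroblast-like nuclei gave 19.6% and 6.51%. The highest total in both libraries came from neuron-like nuclei (25.2% in each), which are numerous and deep, although their level in CPM was among the lowest.

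**Figure D2:**
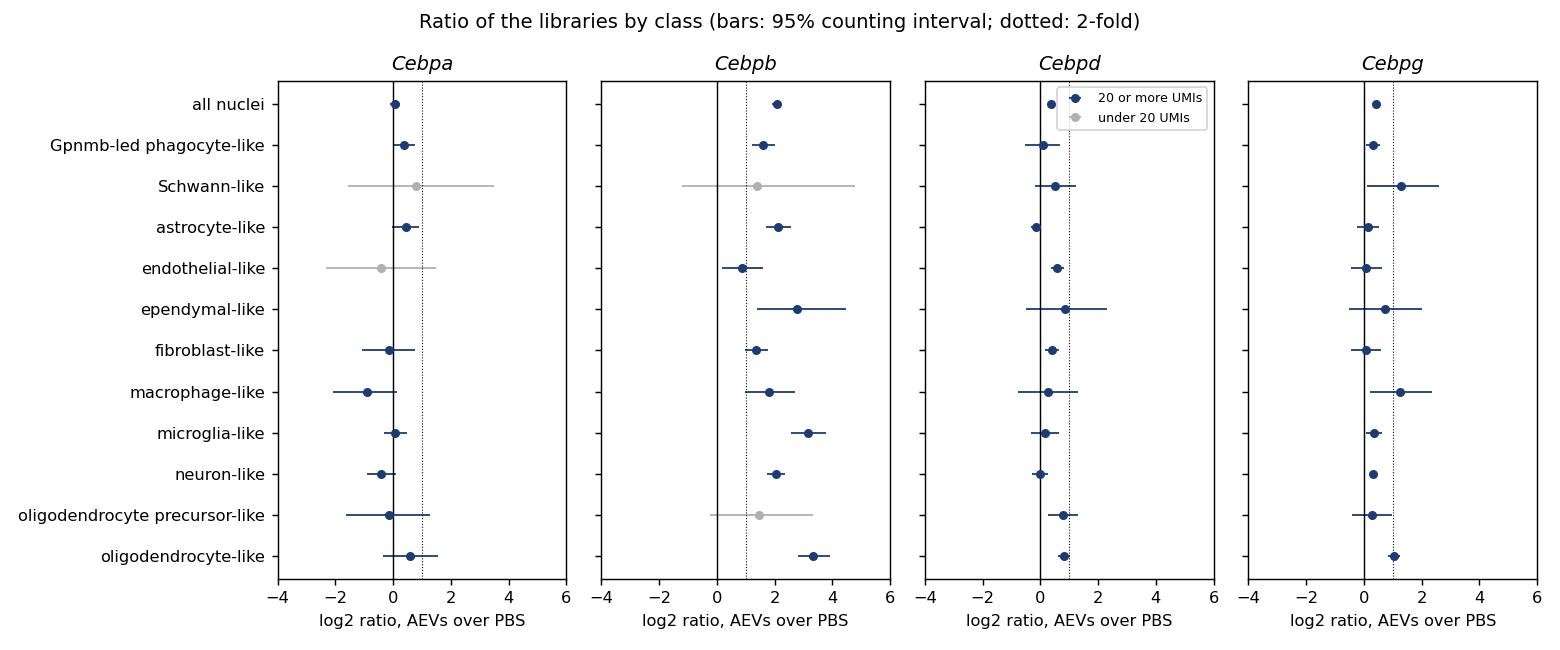
Log2 ratio of AEVs to PBS for each gene over all nuclei and by class, with 95% counting intervals; grey points have under 20 UMIs in both libraries together, the dotted line is 2-fold, and a class with 0 UMIs in a library has no point. Cebpb lies to the right of 0 in every class shown, from 0.87 in endothelial-like to 3.35 in oligodendrocyte-like nuclei.

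Depth per nucleus and free RNA bear on the shares of nuclei. With each nucleus thinned to 1000 UMIs and shallower ones left out, 12378 PBS and 14139 AEVs nuclei remained, and 1.06% (0.886 to 1.25) and 4.20% (3.88 to 4.54) had a Cebpb UMI. Unthinned, the shares were 2.92% and 9.80%. The thinned share was 2.08% and 14.9% in microglia-like nuclei, 0.356% and 3.01% in oligodendrocyte-like nuclei and 0.641% and 6.36% in astrocyte-like nuclei. The lowest was in oligodendrocyte precursor-like nuclei, 0.230% (0.00583 to 1.28) and 0.524% (0.0635 to 1.88). The class with the lowest share was taken as a background for free RNA, although whether its cells lack Cebpb is not known. In AEVs the shares of microglia-like, astrocyte-like and oligodendrocyte-like nuclei were above it beyond counting error. In PBS those of astrocyte-like and oligodendrocyte-like nuclei lay within its interval, so that after thinning they could not be told from free RNA. Without thinning, the PBS level of astrocyte-like nuclei, 14.8 CPM (11.2 to 19.3), was above the 2.66 CPM (0.864 to 6.21) of oligodendrocyte precursor-like nuclei. That of oligodendrocyte-like nuclei, 2.70 CPM (1.85 to 3.81), was not beyond counting error. The neuron-like thinned share, 0.353% in PBS and 1.28% in AEVs, lay within the interval of oligodendrocyte precursor-like nuclei in both libraries. The median depths were 3992.5 and 3398 UMIs in oligodendrocyte precursor-like nuclei and 1603 and 1462 in microglia-like nuclei. Shallow clusters led by neurofilament genes, which were left unnamed, had medians of 955 and 1120 UMIs. Their thinned Cebpb share in AEVs was 6.50% (3.76 to 10.3). The lowest class may thus be too low a background for shallower nuclei. Being above it does not set a class apart from free RNA, whose part was not tested.

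**Figure D3:**
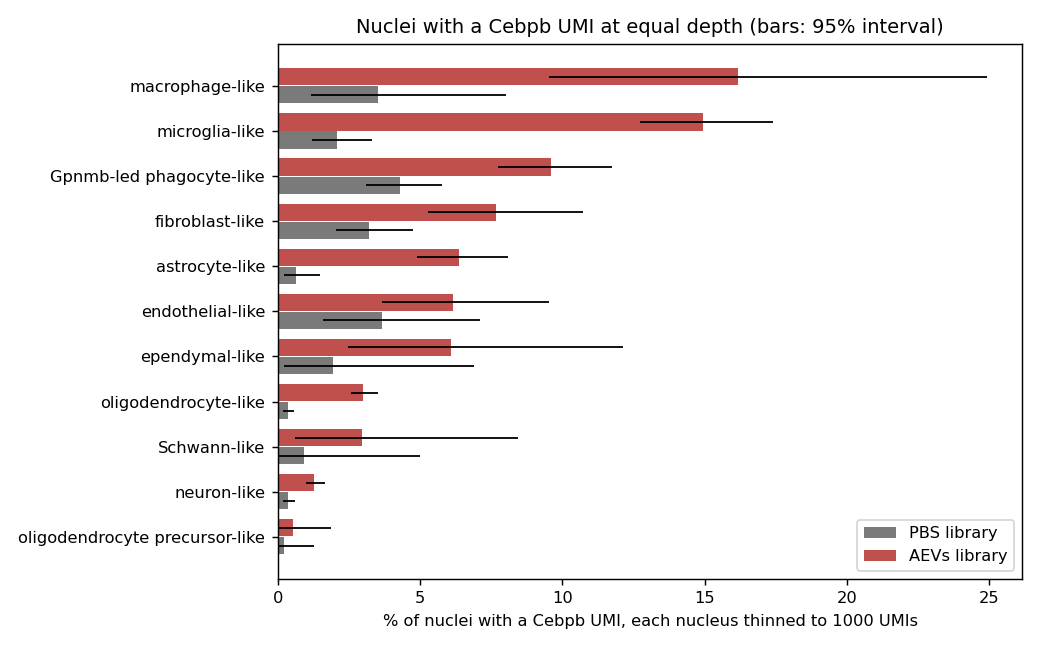
Percent of nuclei with a Cebpb UMI after thinning each nucleus to 1000 UMIs, by class, in the PBS (grey) and AEVs (red) libraries, with 95% binomial (Clopper-Pearson) intervals. Microglia-like nuclei go from 2.08% to 14.9%, while oligodendrocyte precursor-like nuclei have 0.230% and 0.524%, with wide intervals.

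Cebpb has a single exon, so its reads cannot be split into spliced and unspliced ones. Single-exon protein-coding genes, a set chosen after these values were seen, had 32 of 417 (7.67%) at least 2-fold higher in AEVs and 11 lower, with a median of 0.21. Multi-exon ones had 388 of 15972 (2.43%) higher and 297 lower, with a median of 0.08. In microglia-like nuclei the medians were 0.25 over 116 and 0.07 over 9978 genes, and in oligodendrocyte-like nuclei 0.23 over 231 and 0.12 over 12642. In astrocyte-like (0.05 and 0.06), endothelial-like, ependymal-like and macrophage-like nuclei (-0.07 and 0.02) the single-exon median was the lower of the pair. Single-exon genes there still had the larger share at least 2-fold higher. In that order it was 5.16% against 3.30%, 5.26% against 4.08%, 6.90% against 4.72% and 8.33% against 5.79%. As counts these were 11, 6, 6 and 3 single-exon genes, beside 7, 7, 6 and 4 lower. The shares were 12.1% against 4.64% in microglia-like, 10.4% against 5.16% in oligodendrocyte-like and 2.70% against 5.49% in Schwann-like nuclei. Ribosomal protein genes, whose messengers are mostly cytoplasmic, had a median of 0.45 over all nuclei, 0.68 in microglia-like and 0.37 in oligodendrocyte-like nuclei. These medians lie below the Cebpb ratios, and their part in them was not tested. Tmem189, the gene opposite Cebpb, had log2 ratios of 0.68 (0.27 to 1.10) in microglia-like and 0.31 (0.21 to 0.41) in oligodendrocyte-like nuclei.

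Cebpd, the family member best known from the acute-phase response, had its highest levels in vascular, stromal and astroglial nuclei and differed little between the libraries. Over all nuclei it had 1956 UMIs in PBS (27.5 CPM, 26.3 to 28.7) and 2408 in AEVs (35.1 CPM, 33.7 to 36.6), a log2 ratio of 0.36 (0.27 to 0.44). In 0 of 11 classes was it 2-fold higher or lower, although ependymal-like nuclei, with few UMIs, passed 2-fold in 3 of 9 alternative processings (-0.02 to 1.90). Endothelial-like nuclei stood first in both libraries, with 251 UMIs and 354 CPM (312 to 401) in PBS and 501 UMIs and 529.5 CPM (484 to 578) in AEVs, a log2 ratio of 0.58 (0.36 to 0.80). A Cebpd UMI was found in 31.5% and 40.6% of them.

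Fibroblast-like (148 CPM), astrocyte-like (146) and Schwann-like nuclei (95.8) came next in PBS, of which the first and second did not differ beyond counting error. Neuron-like nuclei had the lowest level in both libraries, 5.25 and 5.18 CPM. Among the classes whose interval lay above 0, the widest Cebpd ratios were in the oligodendrocyte lineage. Oligodendrocyte-like nuclei had 319 UMIs (26.9 CPM) in PBS and 582 (47.6 CPM) in AEVs, a log2 ratio of 0.82 (0.62 to 1.03). In oligodendrocyte precursor-like nuclei 58 and 73 UMIs gave 0.78 (0.26 to 1.30), and in fibroblast-like nuclei 349 and 239 UMIs gave 0.40 (0.16 to 0.64). Ependymal-like nuclei had a ratio of 0.85 (-0.50 to 2.31) from 8 and 14 UMIs. Microglia-like nuclei, with a high Cebpb ratio, had 72 and 84 Cebpd UMIs and 0.16 (-0.32 to 0.63).

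Astrocyte-like nuclei held more Cebpd UMIs than any other class in PBS, 540, and had 559 in AEVs, a log2 ratio of -0.16 (-0.33 to 0.01). Its 2 clusters had ratios of opposite sign, a difference that was not tested. In the cluster led by A2m, Vim and Aqp4, whose leading genes include Gfap and Lcn2 of reactive astrocytes, Cebpd had 414 UMIs (308.9 CPM) in PBS and 397 (222 CPM) in AEVs, a log2 ratio of -0.48 (-0.68 to -0.27). In the cluster led by Agt, with 126 and 162 UMIs, it was 53.3 and 64.7 CPM, a log2 ratio of 0.28 (-0.06 to 0.63). Cebpb was higher in AEVs in both, so in the A2m-led cluster the ratios of these genes lay on opposite sides of 0.

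Cebpa, a lineage factor of myeloid cells, had its highest levels in phagocytes and was nearly equal in the libraries. Over all nuclei it had 484 UMIs in PBS (6.80 CPM, 6.20 to 7.43) and 488 in AEVs (7.12 CPM, 6.50 to 7.78), a log2 ratio of 0.07 (-0.12 to 0.25), so that a 2-fold difference lies outside the counting interval. In PBS it was highest in macrophage-like (79.4 CPM), microglia-like (68.5) and Gpnmb-led phagocyte-like nuclei (54.0). Neighbours within this group did not differ beyond counting error. The next class, astrocyte-like, had 17.8 CPM, below the Gpnmb-led class by more than counting error. In AEVs these 4 classes had 42.2, 72.4, 70.0 and 24.0 CPM. Microglia-like nuclei had 103 and 114 UMIs, a log2 ratio of 0.08 (-0.32 to 0.48), beside 26 and 241 UMIs of Cebpb.

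Of the 8 classes with enough Cebpa UMIs, 0 were 2-fold higher or lower. After thinning, 2 with few UMIs passed it, fibroblast-like nuclei at -2.49 (10 and 1 UMIs) and oligodendrocyte precursor-like nuclei at 1.18 (3 and 6 UMIs). Macrophage-like nuclei had 28 and 11 UMIs, a log2 ratio of -0.91 (-2.07 to 0.14). Within the astrocyte-like class, the Agt-led cluster had 27 Cebpa UMIs in PBS and 62 in AEVs, giving 1.12 (0.44 to 1.83), and the A2m-led cluster 39 and 41 UMIs and -0.34 (-1.01 to 0.33). Neuron-like and oligodendrocyte-like nuclei were lowest among the well-counted classes, with 1.87 and 1.43 CPM in PBS and 1.41 and 2.13 in AEVs. Ependymal-like nuclei had 0 UMIs in PBS and 2 in AEVs, too few for a ratio.

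Cebpg, the partner of ATF4 in the amino acid response, was counted in every class and was modestly higher in AEVs. Over all nuclei it had 2042 UMIs in PBS (28.7 CPM, 27.4 to 29.9) and 2600 in AEVs (37.9 CPM, 36.5 to 39.4), a log2 ratio of 0.40 (0.32 to 0.49). Its levels were highest in Gpnmb-led phagocyte-like nuclei (135 and 167 CPM) and microglia-like nuclei (129 and 164 CPM), which did not differ from each other beyond counting error in either library. The log2 ratios there were 0.31 (0.08 to 0.55) and 0.34 (0.07 to 0.62).

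Of the 3 classes in which Cebpg passed 2-fold, oligodendrocyte-like nuclei had the most UMIs. It had 255 UMIs in PBS (21.5 CPM, 19.0 to 24.3) and 540 in AEVs (44.2 CPM, 40.5 to 48.1), a log2 ratio of 1.04 (0.82 to 1.26), and the difference was present in the clusters led by Apod (1.30, 0.89 to 1.72), Ptgds (0.89, 0.59 to 1.20) and Gm32122 (0.97, 0.47 to 1.49). With these nuclei left out, the log2 ratio over all other nuclei was 0.28. It was under 2-fold in this class in 3 of 10 alternative processings, at 0.90 under TMM scaling. Macrophage-like and Schwann-like nuclei had wider ratios from fewer UMIs, from 13 and 23 and from 9 and 21 UMIs, with log2 ratios of 1.26 (0.22 to 2.36) and 1.29 (0.10 to 2.60). Macrophage-like nuclei were at least 2-fold higher in 9 of 10 alternative processings (0.85 to 2.84). Schwann-like nuclei were in 7 of 9 (0.79 to 1.84). Neuron-like nuclei, the source of 45.3% and 42.9% of Cebpg UMIs, had 20.9 and 25.8 CPM, a log2 ratio of 0.30 (0.18 to 0.43).

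**Figure D4:**
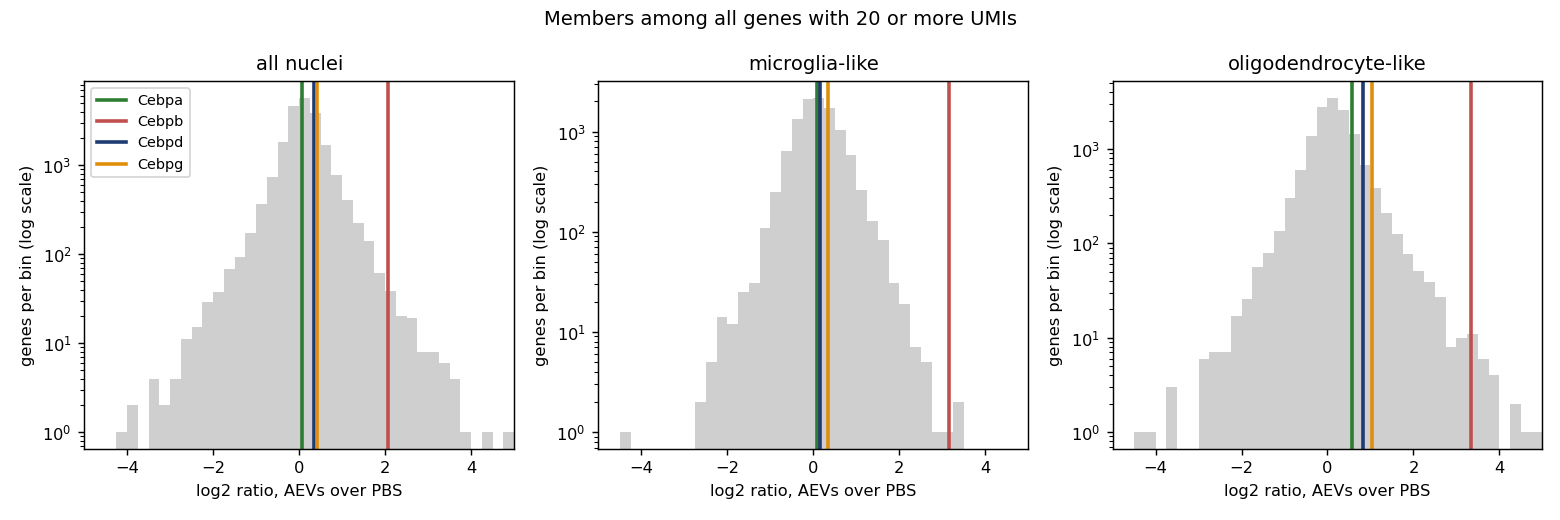
Number of measured genes by log2 ratio of AEVs to PBS (logarithmic vertical axis) over all nuclei, in microglia-like and in oligodendrocyte-like nuclei, with the members as lines. Cebpb lies in the right tail in each panel, at 2.07, 3.15 and 3.35, while in oligodendrocyte-like nuclei Cebpg (1.04) and Cebpd (0.82) lie on the right shoulder.

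The members were seldom found in the same nucleus at this depth. In thinned AEVs nuclei, 594 had Cebpb, 627 Cebpd and 717 Cebpg. Cebpb and Cebpd were found together in 48, against 26.3 from the product of their shares, and Cebpb and Cebpg in 43, against 30.1. Such products ignore cell class: within microglia-like nuclei Cebpb and Cebpg were together in 19, against 20.8, and within astrocyte-like nuclei Cebpb and Cebpd in 11, against 5.41.

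Across the 22 profiles of 11 classes in 2 libraries, each gene was compared with 15809 others by Pearson correlation of log2(CPM + 1), as a description, since profiles of a library share its depth and preparation. The genes most like Cebpa were Galnt1 (0.94), Prkcd (0.92), Crlf3, Fcgr2b and Il17ra, and those most like Cebpd were Lats2 (0.90), Pdgfrb (0.88), Myl12a, Rhoc and Id1. Cebpg was most like Mylip and Dram2 (both 0.92), Kpna4, H2-T24 and Vps26a. Cebpb was most like Rpl35 (0.86), H2-T23, Mfsd10, Rps23 and Ssr4, of which Rpl35 and Rps23 encode ribosomal proteins. Among the members the closest pair was Cebpa and Cebpg (0.74) and the most distant Cebpd and Cebpg (0.27).

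Among the rest of the family and its leucine zipper partners, no measured gene reached the ratio of Cebpb over all nuclei. Of 15 measured genes 0 were at least 2-fold higher and 0 lower, with a median log2 ratio of -0.18. These counts are near the shares of all genes, 4.49% higher and 2.12% lower. Under TMM scaling 0 of the 15 were higher and 1 lower. Cebpe, a granulocyte gene, had 6 and 2 UMIs, and Cebpz, listed for its name although it has no leucine zipper, had a log2 ratio of 0.08 (0.02 to 0.15). The highest were Batf3 (0.82, 0.50 to 1.15), Atf4 (0.47, 0.38 to 0.55) and Atf5 (0.43, 0.27 to 0.60). The lowest were Fos (-0.97, -1.09 to -0.85), Fosl2 (-0.69) and Jun (-0.48). Ddit3, the stress-induced partner CHOP, is named because it was looked up after other values were seen, and had 0.31 (0.19 to 0.42). By class it had 3 and 29 UMIs in endothelial-like nuclei (2.86, 1.17 to 5.21) and 65 and 120 in Gpnmb-led nuclei (1.18, 0.73 to 1.64). Astrocyte-like nuclei, with 90 and 80 UMIs, had -0.38 (-0.83 to 0.07).

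In oligodendrocyte-like nuclei 6 of 13 partners were at least 2-fold higher (3 under TMM scaling, which shifts this class by 0.13) and 0 lower. Of all genes there 6.61% were at least 2-fold higher and 2.32% lower. The partners had a median of 0.28, against 0.13 for all genes. Atf4, the partner of C/EBPγ, named here after its value was seen, had 293 and 608 UMIs (1.01, 0.81 to 1.22). Atf3 had 13 and 37 UMIs (1.47, 0.52 to 2.50), Atf5, which like ATF4 serves the stress response, 68 and 175 (1.32, 0.91 to 1.75), and Nfil3, a repressor of the same fold, 80 and 188 (1.19, 0.80 to 1.58). In microglia-like nuclei 2 of 12 were at least 2-fold higher (1 under TMM scaling), Creb5 (1.22, 0.35 to 2.16) and Jun (1.04, 0.24 to 1.88), and the median was 0.60. Of all genes there 5.08% were at least 2-fold higher.

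Inhibitors and cofactors were mostly level. Over all nuclei 1 of 14 was at least 2-fold higher, the pseudokinase gene Trib3 (57 and 113 UMIs, 1.04, 0.57 to 1.53), and the median was -0.07. Of all genes 4.49% were at least 2-fold higher. Under TMM scaling, which shifts all nuclei by 0.10, 0 of the 14 were. In oligodendrocyte-like nuclei Trib3 had 2 and 32 UMIs, a log2 ratio of 3.96 (1.99 to 7.06). In microglia-like nuclei 0 of 12 were past 2-fold in either direction (5.08% of all genes were higher and 1.87% lower).

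Of 22 signals and receptors that act on the family, 1 was at least 2-fold higher over all nuclei and 1 lower. Of all genes 4.49% were higher and 2.12% lower. Tnf, the cytokine TNF, had 27 and 68 UMIs (1.39, 0.73 to 2.09), and Il6, whose product induces Cebpb and Cebpd in other tissues, had 61 and 18 UMIs (-1.71, -2.55 to -0.93). C/EBPβ was first named for that cytokine, as NF-IL6. Il6 was lower in fibroblast-like nuclei as well, with 36 and 3 UMIs (-2.64, -4.98 to -0.97). In microglia-like nuclei Tnf had 4 and 22 UMIs (2.39, 0.83 to 4.39) and Nfkbia, the inhibitor of NF-κB, 168 and 360 (1.03, 0.76 to 1.31). In oligodendrocyte-like nuclei Il6ra, the interleukin-6 receptor, had 45 and 234 UMIs (2.33, 1.87 to 2.83).

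The glucocorticoid-responsive genes were the list with the highest median, 0.69 over all nuclei against 0.10 for all genes. At least 2-fold higher were 4 of 15 and lower 0, beside 4.49% and 2.12% of all genes. Sult1a1, a sulfotransferase, had 244 and 1073 UMIs (2.19, 1.99 to 2.40), Hif3a 901 and 3689 (2.09, 1.98 to 2.20) and Cdkn1a, the cell cycle inhibitor p21, 1832 and 6635 (1.91, 1.84 to 1.99). Zbtb16 (-0.44), Errfi1 (-0.34) and the receptor gene Nr3c1 (-0.19, -0.23 to -0.14) were lowest. In oligodendrocyte-like nuclei 9 of 15 were at least 2-fold higher (7 under TMM scaling), beside 6.61% of all genes, with a median of 1.02. In microglia-like nuclei 6 of 14 were (5 under TMM scaling), beside 5.08% of all genes, with a median of 0.95. In endothelial-like nuclei 2 of 15 were higher and 1 lower, beside 4.33% and 2.47% of all genes, and the median was -0.02, against 0.06 for all genes. These genes had been picked out with results of these libraries known, so the list does not bear independently on its own direction.

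**Figure D5:**
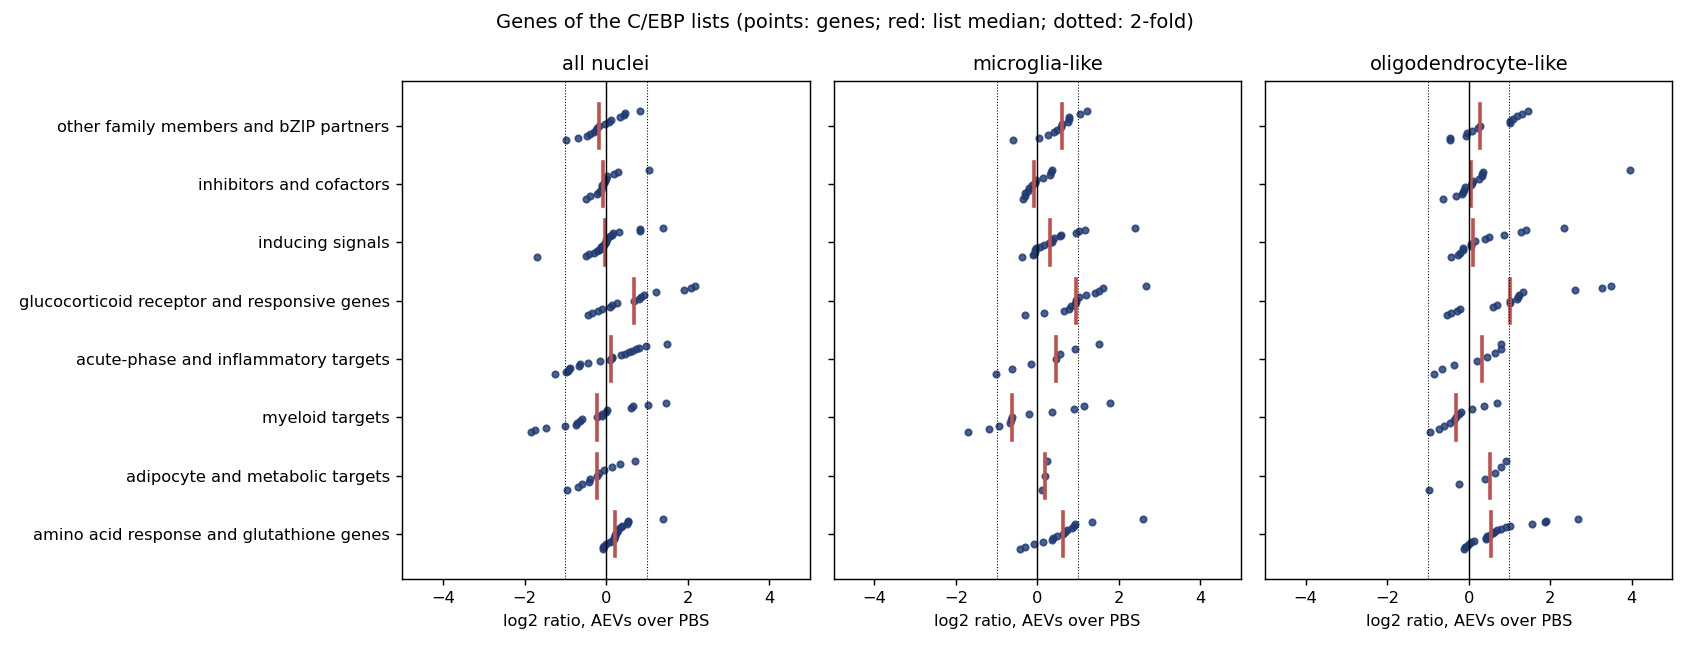
Log2 ratio of AEVs to PBS of the measured genes of the 8 lists (points), with the list median (red bar) and 2-fold (dotted lines), over all nuclei, in microglia-like and in oligodendrocyte-like nuclei. The glucocorticoid list has the highest median in each panel, 0.69, 0.95 and 1.02, while myeloid targets have medians of -0.21, -0.63 and -0.32.

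Acute-phase and inflammatory target genes had a median near that of all genes, 0.11 over all nuclei. Of 20 measured, 1 was at least 2-fold higher and 1 lower (4.49% and 2.12% of all genes), and under TMM scaling 1 and 4. Orm1, an acute-phase glycoprotein, had 7 and 19 UMIs (1.50, 0.18 to 2.99), Lcn2, the lipocalin of reactive astrocytes, 2043 and 3888 (0.98, 0.91 to 1.06), and Ptx3 188 and 318 (0.81). Hp, haptoglobin, had 117 and 47 UMIs (-1.26, -1.78 to -0.76), Saa3 439 and 212 (-0.99) and Cxcl1 99 and 50 (-0.93).

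By class, these genes separated. In astrocyte-like nuclei Lcn2 had 1018 and 2477 UMIs (1.07, 0.97 to 1.18), while C3, complement component 3, had 1709 and 1235 (-0.68, -0.79 to -0.57). Both were lower in ependymal-like nuclei, Lcn2 with 31 and 6 UMIs (-2.33, -3.88 to -1.04) and C3 with 57 and 14 (-1.98, -2.94 to -1.12). In fibroblast-like nuclei Saa3 had 301 and 42 UMIs (-1.89, -2.39 to -1.42) and Ptx3 12 and 43 (2.79, 1.84 to 3.85). In macrophage-like nuclei Saa3 was on the other side, with 10 and 84 UMIs (3.51, 2.56 to 4.62).

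Myeloid targets had 2 of 17 genes at least 2-fold higher, 3 lower and a median of -0.21 over all nuclei, and 1 and 4 under TMM scaling. Of all genes 4.49% were higher and 2.12% lower. In macrophage-like nuclei 3 of 12 targets were higher and 2 lower (5.79% and 6.01% of all genes), with a median of 0.12. In astrocyte-like nuclei the median was 0.17. Ccl5 (598 and 161 UMIs, -1.84, -2.10 to -1.58), Ltf (121 and 35, -1.73) and Elane (46 and 16, -1.47), the last 2 of neutrophil granules, were lowest. Arg1, arginase, had 26 and 69 UMIs (1.46, 0.79 to 2.17) and Chil3 137 and 271 (1.04, 0.74 to 1.35). Summed neutrophil markers, which include Ltf, were lower in AEVs over the same nuclei (82.0 and 51.1 CPM), and their part in this list was not tested. In microglia-like nuclei Msr1, a scavenger receptor, had 10 and 36 UMIs (1.78, 0.74 to 2.96), Cd14 274 and 539 (0.91, 0.70 to 1.12) and S100a9 46 and 21 (-1.20, -2.02 to -0.42).

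Fat cell and metabolic targets had 0 of 11 genes past 2-fold in either direction over all nuclei (4.49% of all genes were higher and 2.12% lower). Their median was -0.22, with Klf15 highest (0.72, 0.61 to 0.84) and Fabp4 lowest (-0.95, -1.25 to -0.67). The amino acid response and glutathione genes of C/EBPγ and ATF4 had a median of 0.23 over 20 genes, against 0.10 for all genes. At least 2-fold higher was 1 (4.49% of all genes were), Ddit4, an inhibitor of mTOR signalling (2670 and 6815 UMIs, 1.41, 1.34 to 1.47). In oligodendrocyte-like nuclei 5 of 20 were at least 2-fold higher and 0 lower (6.61% and 2.32% of all genes), with a median of 0.55. Cth, which makes cysteine, had 7 and 46 UMIs there (2.67, 1.52 to 4.06), Nupr1 72 and 277 (1.90, 1.52 to 2.29) and Ddit4 1148 and 4324 (1.87, 1.78 to 1.96). In microglia-like nuclei 2 of 15 were at least 2-fold higher (5.08% of all genes), Ddit4 (33 and 207 UMIs, 2.58, 2.05 to 3.16) and Aldh18a1 (9 and 24, 1.35, 0.19 to 2.64). The median there was 0.62. In macrophage-like nuclei, where Cebpg had a ratio of 1.26, 3 of 9 were higher and 1 lower (5.79% and 6.01% of all genes), with a median of -0.19.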

How the data were processed

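Nuclei of frozen cord were read with a SeekGene 3-prime droplet kit, per the labels' protocols, and the authors deposited unscaled UMI counts, 1 matrix per library. The build mm10 and Seurat are named per the submitters' processing notes. The aligner, the use of strand and any removal of free RNA: not given in the sources used here. Of 32285 identifiers, 32235 were in GENCODE M21.

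Nuclei with at least 300 genes, 500 UMIs and under 5% mitochondrial UMIs were kept, and Scrublet calls (scanpy 1.11.5) removed 947 PBS and 1347 AEVs nuclei as doublets. The libraries were clustered jointly without batch correction (2000 variable genes per library less 62 of the listed genes, 30 components, 20 neighbours, Leiden resolution 1, igraph 0.11.9), giving 27 clusters. Each was named for the class with the highest proportion of markers at 2-fold or more over the median cluster, given 3 or more such markers and no other class with more markers among the 10 leading genes. That scoring was made after clusters were seen, as was the rule that left shallow clusters led by 2 or more neurofilament genes unnamed (801 and 451 nuclei). T or NK cell-like nuclei (138 and 30) were too few to describe.

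UMIs were summed by class and library. Intervals are Poisson for levels, conditional binomial for ratios and Clopper-Pearson for shares, all exact (scipy 1.17.1). The ratio script was tested on simulated data. From each of 8 lists the text could name the 3 top and the 3 bottom measured genes by ratio, over all nuclei and in classes where Cebpb or Cebpd passed 2-fold with 50 or more UMIs. The members and lists were chosen with earlier results of these data known. Motifs were also searched in 300-base windows reaching 50 bases past the start, where Cebpb had 1 TATA box and Cebpg 1 GC box.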

Additional observations from a re-analysis of the deposited data

Results flagged for a closer look

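In the unnamed shallow clusters led by neurofilament genes, which no class above holds, Cebpb had 6 UMIs in 801 PBS nuclei and 49 in 451 AEVs nuclei, a log2 ratio of 3.82 (2.60 to 5.34), and Cebpd had 24 and 28 UMIs and 1.01 (0.18 to 1.86). These nuclei were outside the comparison of classes. Their Cebpb level was 4.79 CPM (1.76 to 10.4) in PBS and 67.7 CPM (50.1 to 89.5) in AEVs. Cebpd had 19.2 and 38.7 CPM. The AEVs interval of Cebpb held the AEVs levels of endothelial-like (64.5 CPM), astrocyte-like (64.3) and ependymal-like nuclei (63.6). Macrophage-like (169), microglia-like (153), Gpnmb-led (99.9) and fibroblast-like nuclei (96.9) lay above it. Oligodendrocyte-like nuclei (27.5) and the other classes lay below it. The part of free RNA in these levels was not tested.

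Cebpd lay in opposite directions in single clusters, each interval leaving out 0. It was higher in AEVs in the clusters led by Ptgds and Mal (0.93), Apod and Prr5l (0.80), Vcan and Sox6 (0.78), Ly6c1 and Slco1a4 (0.58) and Dcn and Col1a1 (0.40), and lower in those led by A2m and Vim (-0.48) and Galntl6 and Lrrtm4 (-0.51). Cebpa was higher in the clusters led by Agt (1.12) and by Gpnmb and Ctss (0.37) and lower in that led by Galntl6 and Lrrtm4 (-0.65). The differences between these clusters were not tested, since there is 1 library per group.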

How the results depend on the processing

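Other scalings, depth, filters, doublets and clusterings were tried, and each class was left out in turn. Cebpb stayed at least 2-fold higher over all nuclei in 24 of 24 alternatives (1.90 to 2.27) and in each class at or above 2-fold, while endothelial-like nuclei ranged from 0.51 to 0.92. Its log2 ratio over all nuclei was 2.27 without fibroblast-like and 1.90 without oligodendrocyte-like nuclei. It was 3.40 in astrocyte-like and 2.78 in macrophage-like nuclei after thinning, 2.24 in microglia-like nuclei at Leiden resolution 0.5 and 2.43 in neuron-like nuclei as a mean over nuclei. Cebpd over all nuclei was 0.26 under both TMM and median-of-ratios scaling, 0.46, 0.22, 0.47 and 0.23 without astrocyte-like, endothelial-like, fibroblast-like and oligodendrocyte-like nuclei. Cebpg was 0.31 under both scalings, 0.54 after thinning, 0.50 without neuron-like and 0.28 without oligodendrocyte-like nuclei. Where no construction of the alternative shows it, the cause was not tested. No value named in this paragraph so far changed direction. Cebpg was under 2-fold in oligodendrocyte-like nuclei under TMM (0.90), median-of-ratios (0.92) and the mean over nuclei. Cebpd in astrocyte-like nuclei was 0.08 with no mitochondrial limit. Cebpb in ependymal-like nuclei was 1.05 after thinning. Where Cebpd was near 0 its sign turned, to -0.87 in macrophage-like nuclei under the stricter nucleus filter and to -0.64 in Gpnmb-led nuclei after thinning. Cebpg turned sign as well in some classes, with lowest values of -1.17 in ependymal-like nuclei (9 of 10 alternatives above 0) and -0.92 in oligodendrocyte precursor-like nuclei (8 of 10). In fibroblast-like nuclei its lowest value was -0.63 (5 of 10 above 0). With at least 100 UMIs, 2.30% of genes over all nuclei were at least 2-fold higher, and with at least 1 UMI 11.7%. Over the classes these shares ran from 1.17% to 3.67% and up to 22.5%. Leaving out a replicate was not possible with 1 library per group, and no value measures the spread between mice. Small classes rest on few UMIs.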
